A study of Caenorhabditis elegans with 4 samples.

Results

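The 5 miRNAs described here are miR-72-5p, miR-86-5p, miR-230-3p, miR-244-5p and miR-253-3p, out of 66 mature miRNAs listed for co-immunoprecipitations (co-IPs) of the Argonautes ALG-2 and ALG-1 from *C. elegans*. They were picked from this same comparison, as miRNAs outside the larger families that leaned toward ALG-2, so their higher values with ALG-2 are a description and carry no test. The strains were PQ582, in which the endogenous *alg-2* gene encodes FLAG::RFP::ALG-2, and PQ530, in which *alg-1* encodes FLAG::GFP::ALG-1. Both are edited lines with the tag at the N-terminus of the protein. Whole animals of both strains were grown at one temperature, given no treatment and collected on day 5 of adulthood after eggs and larvae had been removed, and both proteins were recovered with the same FLAG antibody. Each co-IP gave 2 small RNA libraries, called A and B here in the order of the columns, since the columns carry no replicate numbers.

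Argonautes hold a mature miRNA and bring it to mRNAs that pair with it, mostly through the seed, a short stretch near the 5′ end of the miRNA. Which mRNAs are repressed therefore depends on which miRNAs an Argonaute carries. In *C. elegans*, ALG-1 and ALG-2 both carry miRNAs in somatic cells. miRNAs with the same seed form a family and can share targets. The 5 miRNAs belong to different families. miR-72 is grouped by its seed with miR-73 and miR-74, which are relatives of mammalian miR-31, miR-86 shares its seed with miR-785, and miR-244 has the seed of miR-9, a miRNA known in other animals from nervous system development.

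The genes lie on 5 different chromosomes. In the RefSeq annotation of WBcel235, *mir-72* lies on chromosome II at 2452838-2452936 and overlaps no other gene. *mir-86* lies on chromosome III at 11936637-11936734, within the span of the protein-coding gene *Y56A3A.7* (11933992-11947019). *mir-230* lies on chromosome X at 5803892-5803989, and *mir-244* on chromosome I at 4684316-4684414, both outside other genes. *mir-253* lies on chromosome V at 5780510-5780616, within the span of the protein-coding gene *F44E7.5* (5778817-5780922) and of a small non-coding gene, *F44E7.15* (5780500-5780645). The annotation table gives no strand, so these overlaps do not say which transcript carries the hairpin. Of the listed miRNAs, 0 come from the other arm of any of the 5 hairpins and 0 from a gene within 10000 bases of them.

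The values are RPM, the reads of a miRNA divided by all reads of its library and multiplied by 1000000. Depth was 12401622 reads for ALG-2 library A and 25703472 for ALG-2 library B, against 11625117 for ALG-1 library A and 6428905 for ALG-1 library B. The values of the 5 miRNAs therefore stood on 544 to 2151088 reads each, with relative counting errors between 0.0682% and 4.29%. These errors cover the sampling of reads only. No input RNA or mock co-IP was analysed here. In whole animals, a higher share in the ALG-2 co-IP cannot be told apart from more of the miRNA in the cells where ALG-2 is present, and fewer cells of a type cannot be told apart from less RNA per cell.

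All 5 miRNAs were higher in both ALG-2 libraries than in both ALG-1 libraries, as were 17 of all 66 miRNAs (25.8%). By a stricter requirement, that all 4 ratios between an ALG-2 and an ALG-1 library exceed 1.5, miR-72-5p, miR-230-3p and miR-253-3p passed (3 of 5), compared to 11 of 66 in the whole table (16.7%). miR-86-5p and miR-244-5p did not pass. Taken on group means, the ratio exceeded 1.5 for all 5, as it did for 22 of 66 (33.3%). Since the 5 were chosen for this contrast, the comparison with the whole table shows no more than how they were chosen. Their mean log2 ratios of ALG-2 over ALG-1 ranged from 0.69 to 2.71 with a median of 1.06, whereas the median of all 66 was -0.13.

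**Figure D1:**
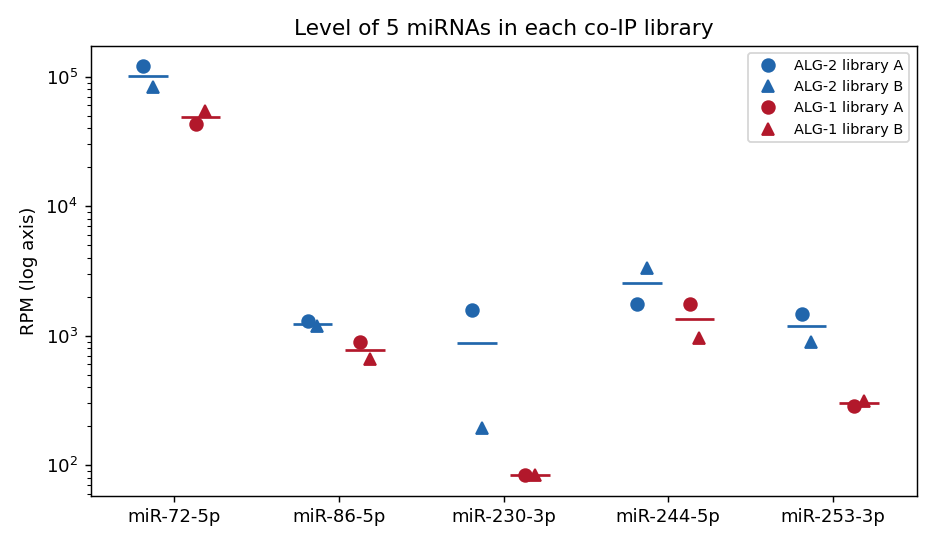
RPM (log axis) of the 5 miRNAs in ALG-2 libraries (blue) and ALG-1 libraries (red); circles are library A, triangles library B and horizontal lines the mean of the 2 libraries. miR-72-5p lies far above the others in every library, and for miR-230-3p the 2 ALG-2 libraries lie at 1573 and 195 RPM.

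miR-72-5p was by far the most abundant of the 5. It had 119882 and 83689 RPM in ALG-2 libraries A and B, against 42704 and 54166 RPM in ALG-1 libraries A and B. Its rank among all miRNAs was 1 and 3 in ALG-2 libraries A and B, against 5 in both ALG-1 libraries. The groups did not overlap, and the averages were 101785 ± 25593 RPM with ALG-2 and 48435 ± 8105 RPM with ALG-1 (SD, n = 2 each). Each ALG-2 library exceeded each ALG-1 library by more than 1.5-fold. ALG-2 library A was 2.81 and 2.21 times ALG-1 libraries A and B, and ALG-2 library B was 1.96 and 1.55 times these. The smallest ratio lay just above the minimum, with a 95% counting interval of 1.54 to 1.55 (exact binomial).

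In terms of reads, miR-72-5p was a visible part of each library by itself. It took 11.99% and 8.37% of ALG-2 libraries A and B, against 4.27% and 5.42% of ALG-1 libraries A and B. Because RPM values share one total, a miRNA of this size moves the values of all others. The 5 miRNAs together held 10.8% ± 2.59 of the ALG-2 libraries and 5.10% ± 0.740 of the ALG-1 libraries (SD, n = 2 each), and miR-72-5p made up between 93.4% and 96.4% of that sum in the 4 libraries. The other 4 together held only 0.609% and 0.562% of ALG-2 libraries A and B, against 0.302% and 0.202% of ALG-1 libraries A and B.

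miR-253-3p had the highest minimum ratio of the 5, so that its lean toward ALG-2 did not depend on which libraries were compared. It had 1466 and 899 RPM in ALG-2 libraries A and B, against 288 and 314 RPM in ALG-1 libraries A and B. The 4 ratios were 5.08 and 4.67 for ALG-2 library A and 3.12 and 2.86 for ALG-2 library B, over ALG-1 libraries A and B in each case. The ALG-1 libraries differed from each other by 0.12 on the log2 scale and the ALG-2 libraries by 0.70, both less than the mean log2 ratio of 1.93. Its rank was 41 and 44 in the ALG-2 libraries, against 62 and 57 in the ALG-1 libraries. miR-253-3p thus stood among the rarest listed miRNAs with ALG-1 but nearer to the middle of the table with ALG-2. The study left miRNAs with fewer than 1000 reads over all libraries out of its enrichment analyses. The smallest summed RPM listed here was 1003. The ALG-1 RPM values of miR-253-3p alone fall short of this, whereas its reads in ALG-1 libraries A and B were 3353 and 2019. If the filter was applied to RPM, its low ranks with ALG-1 follow in part from that filter.

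miR-230-3p had the largest ratios of the 5, and these rested on one ALG-2 library. It had 1573 and 195 RPM in ALG-2 libraries A and B, against 83.9 and 84.6 RPM in ALG-1 libraries A and B. The ALG-1 libraries were nearly equal, while ALG-2 library A was 8.05 times ALG-2 library B. The ratios were accordingly 18.8 and 18.6 for ALG-2 library A, but 2.33 and 2.31 for ALG-2 library B. Both ALG-2 libraries passed the 1.5-fold minimum against both ALG-1 libraries, and the lowest 95% counting bound of any of these ratios was 2.11 (exact binomial). The mean log2 ratio was 2.71 with all libraries but 1.20 without ALG-2 library A and 4.21 without ALG-2 library B, so its direction was shared by the ALG-2 libraries and its size was not. miR-230-3p ranked 66 and 65 of 66 in ALG-1 libraries A and B, 63 in ALG-2 library B, and 40 in ALG-2 library A. Its summed RPM reached 1000 only through ALG-2 library A, whereas its reads in ALG-2 library B alone were 5022. If the study's filter of 1000 was applied to RPM, its low ranks elsewhere follow in part from that filter.

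**Figure D2:**
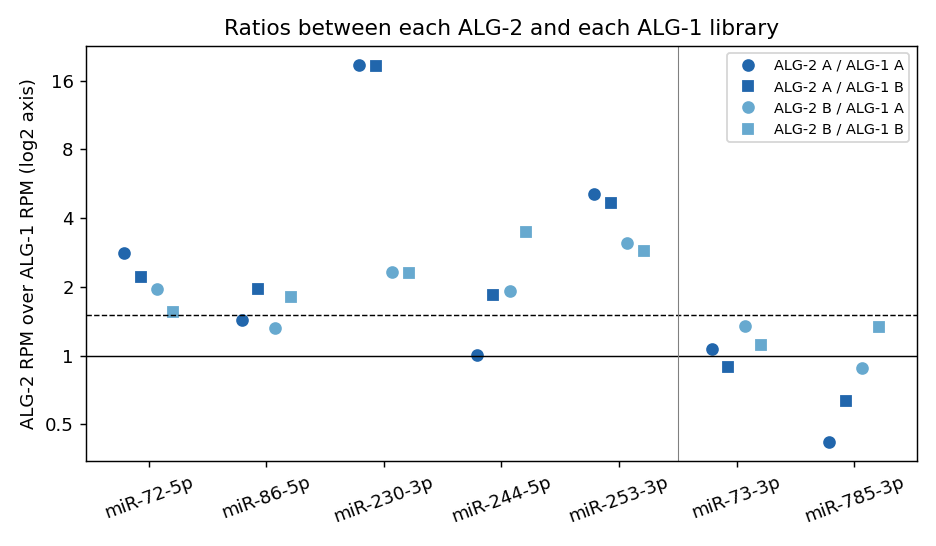
Ratios of RPM (log2 axis) between each ALG-2 library and each ALG-1 library for the 5 miRNAs and, right of the grey line, for 2 listed miRNAs of the same seed families; dark blue is ALG-2 library A, light blue ALG-2 library B, circles are over ALG-1 library A and squares over ALG-1 library B. The solid line marks 1 and the dashed line 1.5; for miR-72-5p, miR-230-3p and miR-253-3p every point lies above the dashed line, while for miR-244-5p one point lies at 1.01.

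miR-86-5p was higher with ALG-2 by a small margin. It had 1291 and 1190 RPM in ALG-2 libraries A and B, against 900 and 659 RPM in ALG-1 libraries A and B. The ALG-2 libraries were close together, and the spread came from the ALG-1 side, where library A was 1.36 times library B. Over ALG-1 library B both ALG-2 libraries passed 1.5, at 1.96 and 1.80 for ALG-2 libraries A and B. Over ALG-1 library A neither did, at 1.43 and 1.32, and the upper 95% counting bounds of these ratios were 1.47 and 1.35 (exact binomial). miR-86-5p therefore passed the minimum in neither ALG-2 library as a whole. When the libraries were rescaled by a trimmed mean of M values (TMM), its lowest ratio became 1.56 and it did pass.

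miR-244-5p alone among the 5 had a ratio close to 1. It had 1763 and 3337 RPM in ALG-2 libraries A and B, against 1747 and 958 RPM in ALG-1 libraries A and B. ALG-2 library A and ALG-1 library A were thus nearly the same, with a ratio of 1.01 and a 95% counting interval of 0.990 to 1.03 (exact binomial), a difference not detectable at this depth. Against ALG-1 library B, ALG-2 library A was 1.84 times as high. ALG-2 library B passed the minimum against both ALG-1 libraries, at 1.91 and 3.48 times ALG-1 libraries A and B. The 2 libraries of a co-IP differed by 0.92 (ALG-2) and 0.87 (ALG-1) on the log2 scale, about as much as the mean log2 ratio of 0.91. The averages were 2550 ± 1113 RPM with ALG-2 and 1353 ± 557 RPM with ALG-1 (SD, n = 2 each).

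Read by library, the lean toward ALG-2 at 1.5-fold held in both ALG-2 libraries for miR-72-5p, miR-230-3p and miR-253-3p, in ALG-2 library B alone for miR-244-5p, and in neither for miR-86-5p. In the whole table, 18 miRNAs (27.3%) passed in ALG-2 library A and 17 (25.8%) in ALG-2 library B against both ALG-1 libraries. Of the 5, 3 passed in library A and 4 in library B. By the lowest of the 4 ratios, the nearest of the 5 to the minimum were miR-72-5p at 1.55 on the one side and miR-86-5p at 1.32 on the other. Among the other listed miRNAs, the nearest above were miR-66-5p at 1.69 and miR-35-3p at 2.32, and the nearest below were miR-80-5p at 1.24 and miR-246-3p at 1.18.

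**Figure D3:**
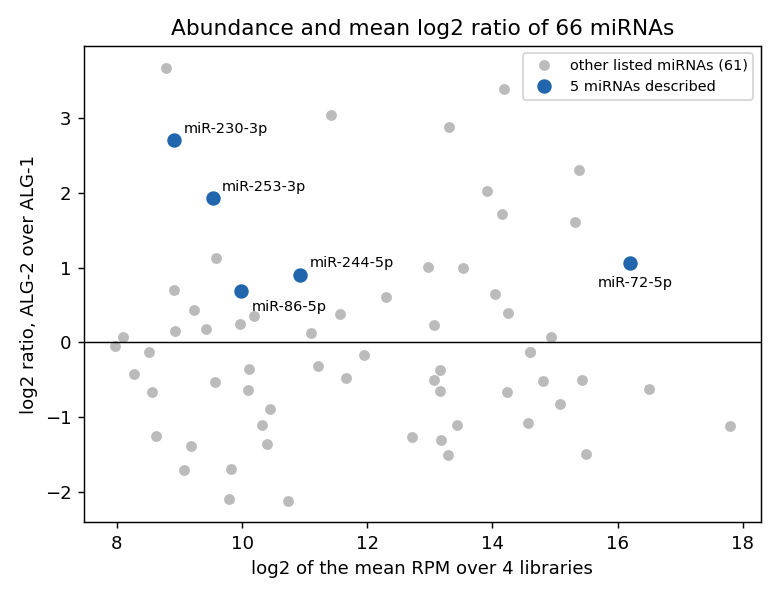
Mean log2 ratio of ALG-2 over ALG-1 (on log2(RPM + 1)) against the log2 of the mean RPM over the 4 libraries for the 66 miRNAs; the 5 described are blue and the other 61 grey. The 5 lie between 0.69 and 2.71, with miR-72-5p at the abundant end and the others in the lower part of the abundance range.

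A limma fit of the whole table set the differences against the spread between libraries. At an adjusted p below 0.05 it called 1 of 66 miRNAs toward ALG-2 (1.52%), which was miR-37-3p, and 0 of the 5. At an unadjusted p below 0.05 it called 3 of the 5 toward ALG-2, beside 10 of 66 in the table (15.2%). The number of the 5 was 2 (miR-230-3p and miR-253-3p) with median-of-ratios or TMM scaling, without the variance trend or with a replicate block. In these fits, 9 or 10 of 66 were called toward ALG-2 in the table. With the miR-35 family left out, the number of the 5 was also 2, beside 5 of 60. These were miR-253-3p and miR-72-5p. The number of the 5 fell as well without either ALG-1 library or without ALG-2 library A. In such fits a group has no replicate. As the 5 were chosen on this contrast, these counts are no support for their lean. No other tool was run. Without ALG-2 library B, the log2 ratio of miR-230-3p was 4.21. That fit leaves the ALG-2 group with the library in which miR-230-3p was high. It assumes that this library varies like the others, so its limma calls are not given.

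The replicate spread differed widely among the 5. It is not independent of their choice, since a lean shared by both ALG-2 libraries limits how far the libraries can differ. Across all 66 miRNAs, the median absolute difference between libraries A and B on the log2 scale was 0.90 for ALG-2 and 0.34 for ALG-1. miR-86-5p, at 0.12, was number 5 from the smallest difference between ALG-2 libraries in the table, and miR-230-3p, at 3.002, number 3 from the largest. miR-72-5p and miR-253-3p, at 0.52 and 0.70, lay below the median, and miR-244-5p, at 0.92, lay near it. Between the ALG-1 libraries the order was another one. There miR-230-3p differed by 0.013, and only 3 listed miRNAs differed by less. Of the 5, 4 were higher in ALG-2 library A than in ALG-2 library B, as were 35 of the 66, and the exception was miR-244-5p.

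**Figure D4:**
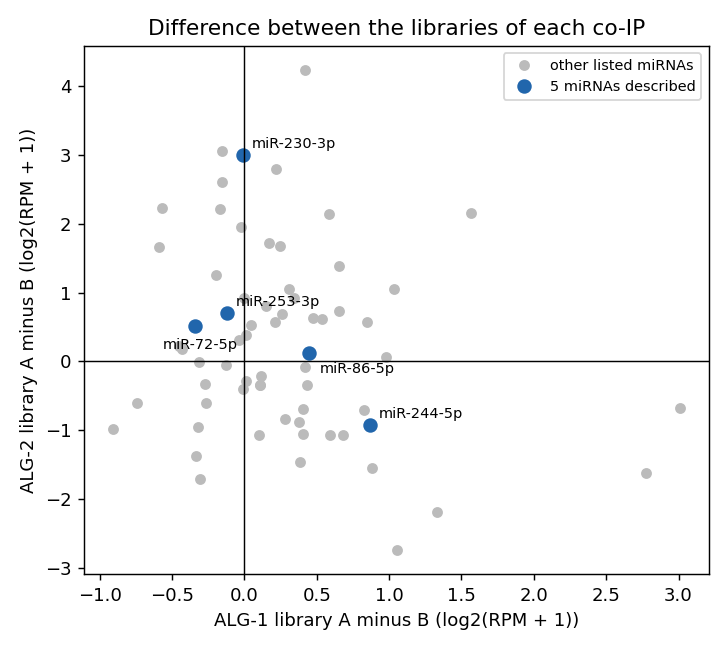
Difference between libraries A and B of log2(RPM + 1) for ALG-2 (vertical) and ALG-1 (horizontal), with the 5 miRNAs in blue and the other listed miRNAs in grey. miR-230-3p lies at 3.002 on the ALG-2 axis but near 0 on the ALG-1 axis, while miR-244-5p lies at -0.92 on the ALG-2 axis and 0.87 on the ALG-1 axis.

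The order of the 5 by RPM also changed between libraries. In both ALG-1 libraries and in ALG-2 library B it was miR-72-5p, miR-244-5p, miR-86-5p, miR-253-3p and miR-230-3p from high to low. In ALG-2 library A, miR-72-5p and miR-244-5p again came first, but miR-230-3p and miR-253-3p stood above miR-86-5p. Averaged over the ALG-2 libraries, miR-86-5p had 1240 ± 71.6 RPM, miR-253-3p 1183 ± 401 RPM and miR-230-3p 884 ± 974 RPM (SD, n = 2 each), which did not differ beyond their spread. With ALG-1 the same miRNAs had 780 ± 170 RPM, 301 ± 18.1 RPM and 84.2 ± 0.529 RPM (SD, n = 2 each), and their libraries did not overlap. Reads compare different miRNAs only roughly, since adapter ligation favours some sequences over others.

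A ratio between miRNAs within one library does not depend on how the library was scaled. The ratio of miR-230-3p to miR-253-3p was 1.07 and 0.217 in ALG-2 libraries A and B, against 0.291 and 0.269 in ALG-1 libraries A and B. By this measure ALG-2 library A stood apart, while ALG-2 library B lay slightly below the ALG-1 libraries. The ratio of miR-244-5p to miR-86-5p was 1.37 and 2.81 in ALG-2 libraries A and B, against 1.94 and 1.45 in ALG-1 libraries A and B, so the ALG-1 values fell between the ALG-2 values.

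Of the seed relatives, miR-73-3p and miR-785-3p were listed, and neither had both ALG-2 libraries above both ALG-1 libraries. miR-73-3p had 2037 and 2548 RPM in ALG-2 libraries A and B, against 1900 and 2294 RPM in ALG-1 libraries A and B, with ratios between 0.888 and 1.34. miR-785-3p had 176 and 371 RPM in ALG-2 libraries A and B, against 420 and 278 RPM in ALG-1 libraries A and B, with ratios between 0.418 and 1.33. In both cases the groups overlapped.

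Set against its relative within each library, miR-72-5p had 58.9 and 32.8 times the RPM of miR-73-3p in ALG-2 libraries A and B, against 22.5 and 23.6 times in ALG-1 libraries A and B. miR-86-5p had 7.35 and 3.20 times the RPM of miR-785-3p in ALG-2 libraries A and B, against 2.14 and 2.37 times in ALG-1 libraries A and B. Both ratios were higher in both ALG-2 libraries, whatever the scaling. As miR-72-5p and miR-86-5p were picked for their lean toward ALG-2 and their relatives were not, these differences within families were not tested.

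For each of the 5, the listed miRNAs with the most similar profile over the 4 libraries were found by the root mean square difference of log2(RPM + 1), after each profile was centred on its own mean. The median of this difference over all pairs of miRNAs was 0.98. The profile nearest to miR-244-5p was that of miR-246-3p, at 0.091, followed by miR-38-3p at 0.25. miR-253-3p lay nearest to miR-39-3p (0.15) and miR-35-3p (0.21), and miR-86-5p to miR-80-5p (0.17) and miR-66-5p (0.18). miR-72-5p was nearest to miR-35-3p (0.34) and miR-66-5p (0.34). miR-230-3p had no close neighbour, with miR-40-3p at 0.52 and miR-51-5p at 0.57. Among the 5 themselves, miR-72-5p and miR-86-5p were the closest pair (0.36) and miR-230-3p and miR-244-5p the farthest (1.68). Only 4 libraries enter each profile, and any miRNAs higher with ALG-2 are alike in that respect.

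The miR-35 family, known mainly from oocytes and embryos, was also higher in the ALG-2 libraries. Its 6 listed members took 26.5% and 14.1% of ALG-2 libraries A and B, against 4.84% and 4.19% of ALG-1 libraries A and B. After these were left out and the libraries rescaled, the lowest ratios were 1.72 for miR-72-5p, 2.58 for miR-230-3p, 3.20 for miR-253-3p, 1.46 for miR-86-5p and 1.31 for miR-244-5p. Each was larger than with the family included, and the same 3 miRNAs passed the minimum. The rise was fixed by arithmetic, since removing a family with larger ALG-2 shares raises all remaining ratios. It is therefore no check on the lean toward ALG-2. The part of RNA from eggs in the levels of the 5 was not tested.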

How the data were processed

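Small RNAs were sequenced from co-IPs of FLAG-tagged ALG-2 and ALG-1, with 2 libraries each. The authors removed adapters (cutadapt is named in the submitters' processing notes, without a version), mapped reads to the WS261 genome with miRDeep2 and quantified miRNAs on miRBase release 21. The deposited values are RPM, which the authors computed as reads per 1000000 reads of the library. Below 1000 reads over all libraries, the study did not analyse a miRNA for enrichment. The smallest summed RPM of a listed miRNA was 1003, and the listed miRNAs held 99.3% to 99.5% of each library. Among the 66, miR-44-3p and miR-45-3p have identical values in all 4 libraries, and both enter every count of the table. The median log2 ratio of the table, -0.13, is their value. Library depths were recovered as the smallest whole total that made all 66 values of a column whole reads (tolerance 0.01 reads). Intervals of ratios are 95% exact binomial intervals on these reads.

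Samples were grouped by title. Columns name the Argonaute but no replicate, so all 4 ratios of an ALG-2 to an ALG-1 library were computed and set against the study's minimum of 1.5. Log2 ratios are means of log2(RPM + 1), ALG-2 minus ALG-1. The whole table was fitted with limma 3.58.1 in R 4.3.3 (variance trend, two-sided, Benjamini-Hochberg over 66 miRNAs). The study describes the RNA samples of each strain as independent; neither it nor the labels say whether they came from separate cultures, and p-values measure the spread between these libraries. Ratio rule, scaling, depth recovery and limma fit were tested on simulated data. These held read-sampling noise only, or the same spread for every miRNA, unlike the libraries here. They checked the code and not how well it performs on these data. The 5 miRNAs and all lists were chosen with earlier results of these data known.

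Named besides the 5 were listed seed relatives, the other hairpin arm, listed genes within 10000 bases, the 2 nearest profiles of each and the 2 miRNAs on either side of the 1.5-fold minimum. Mature sequences were not used here, so seed families are those of general knowledge, and strand was not used for neighbours. Alternatives covered scaling, pseudocount, minimum reads, threshold, pairing, a replicate block and leaving out each library.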

Additional observations from a re-analysis of the deposited data

How the results depend on the processing

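The running numbers in the column names are adjacent within pairs in column order, though no replicate number is given. A replicate block, added after the data were seen, gave 1 limma call toward ALG-2 and 0 toward ALG-1 (7 before adjustment) with these pairs, 5 and 2 with crossed pairs, and 0 of the 5 miRNAs under either (2 before adjustment). Deviations from the group means correlated at -0.21 with pairs in column order. With 2 libraries per group, the 0.21 of crossed pairs is the same number with its sign reversed. This value comes from the data and not from the design, and it does not settle how the libraries were paired. Recovered reads were used for counting errors and binomial intervals only. No test between the Argonautes was run on them, since the table holds no low values to check whole reads on. The same limit applies to these errors and intervals.

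Of the 5 miRNAs, 3 exceeded 1.5 in all 4 ratios, beside 11 of 66 in the table. The ratio of group means gave 5, beside 22 of 66. A minimum of 4000 summed RPM gave 1 of the 5 (miR-72-5p), since miR-230-3p and miR-253-3p fell below it. TMM scaling added miR-86-5p, crosswise pairs added miR-244-5p and a 2-fold threshold lost miR-72-5p. Without one library, fewer ratios must pass and the count ranged from 3 to 5 (5 without ALG-1 library A).

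Of 30 log2 ratios of the 5 with all libraries kept, 29 moved by less than 1 SD. The exception was miR-86-5p, at 0.95 after the miR-35 family was left out. That rescaling raised all 5 by about the same amount, as it must, and miR-86-5p had the smallest SD (0.23). Over the whole table the median log2 ratio was -0.13 on RPM and -0.02 with TMM scaling. Without one library, the log2 ratio ranged from 0.80 to 1.32 for miR-72-5p, 0.46 to 0.91 for miR-86-5p, 1.20 to 4.21 for miR-230-3p, 0.45 to 1.37 for miR-244-5p and 1.58 to 2.28 for miR-253-3p.

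The share of the 5 miRNAs was 13.8% with ALG-2 and 5.33% with ALG-1 once the miR-35 family left the total, a rise fixed by arithmetic. Without miR-72-5p the share was 0.586% with ALG-2 and 0.252% with ALG-1. Without one library it ranged from 8.93% to 12.6% for ALG-2 and from 4.57% to 5.62% for ALG-1.

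The limma count toward ALG-2 was 1. It was 3 without the variance trend, 4 with median-of-ratios and 4 with TMM scaling. Without the miR-35 family (also added later) it was 0, with 5 before adjustment. The 1 miRNA called with all kept, miR-37-3p, belongs to that family, so its removal alone took this call away. Each group had only 2 libraries, and how depth bears on these comparisons was not tested.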
